A study of Rattus norvegicus with 12 samples.

Results

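The miR-181 family was described in the hippocampus of adult male rats. Its members were taken as every row of the deposited lists whose name begins with rno-miR-181a, b, c or d, both arms included, which gave 10 of 753 mature miRNAs. They are rno-miR-181a-5p, rno-miR-181b-5p, rno-miR-181c-5p, rno-miR-181d-5p, rno-miR-181a-1-3p, rno-miR-181a-2-3p, rno-miR-181b-1-3p, rno-miR-181b-2-3p, rno-miR-181c-3p and rno-miR-181d-3p, written below without the prefix that marks the rat. Small RNA libraries from 12 male Sprague Dawley rats aged P70 to P80 were analysed, 4 injected with vehicle and 8 with 4 g/kg ethanol, and tissue was collected 3 h after the injection. The labels call the tissue right hippocampus and the study's methods dorsal hippocampus, so each library holds the RNA of all cell types of that tissue. The labels give no further treatment, and the study describes 8 rats per group, of which 4 vehicle libraries were analysed here. Rats are named below by group and animal number, and a mean is given ± SD over the 4 vehicle or the 8 ethanol rats.

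A miRNA is cut from a hairpin precursor, and each hairpin can release a mature strand from its 5′ arm (5p) and one from its 3′ arm (3p). Pairing to messenger RNA rests mainly on the seed, bases 2 to 8 of the mature strand, so members with the same seed are held to share many targets. In the rat the family comes from hairpins that lie in pairs in the genome, and it is best known for setting the strength of antigen receptor signalling in developing lymphocytes and, in hippocampal neurons, for repressing an AMPA receptor subunit at synapses. Both the ethanol response and the balance of arms and loci were examined.

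The mature sequences are shown because the members differ by so few bases that reads can be hard to assign. They were taken from RefSeq (rat assembly GRCr8), which held 9 of the 10 names and lacked miR-181b-2-3p. The 5p strands are given 5′ to 3′ with the seed in capitals.
miR-181a-5p: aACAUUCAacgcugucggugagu
miR-181b-5p: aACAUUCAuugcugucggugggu
miR-181c-5p: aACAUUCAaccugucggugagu
miR-181d-5p: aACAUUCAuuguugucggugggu
All 4 carry the seed ACAUUCA, which 4 of the 693 mature names in the RefSeq table hold, so no other name in that table shares it. Counted from 1 at the 5′ end of miR-181a-5p, miR-181b-5p differed by A9U, C10U and A21G. Counted in the same way from miR-181b-5p, miR-181d-5p differed from it by the single substitution C12U. Removing the base at position 11 of miR-181a-5p gave miR-181c-5p, which is 22 nt long against 23 nt for the other three.

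The 3p strands of miR-181a-1 and miR-181c are nearly alike, and the capitals mark the bases at which they differ.
miR-181a-1-3p: accaucgaccguugaUugUacc
miR-181c-3p: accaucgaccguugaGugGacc
They share their first 15 bases and therefore their seed, and they differ by U16G and U19G, counted from the 5′ end of miR-181a-1-3p. The remaining 3p strands are shown with the seed in capitals, since each has a seed of its own.
miR-181a-2-3p: aCCACCAAccguugacugu
miR-181b-1-3p: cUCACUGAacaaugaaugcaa
miR-181d-3p: cCACCGGGggaugaauguca
The RefSeq form of miR-181a-2-3p is 19 nt long, and the libraries were made from RNA cut from a gel at 20 to 30 nt.

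In RefSeq's annotation of GRCr8, Mir181a-1 and Mir181b1 are neighbours on chromosome 13 and lie within a long non-coding RNA gene. Mir181a2 and Mir181b2 are neighbours on chromosome 3, inside both Nr6a1, which encodes an orphan nuclear receptor, and a long non-coding RNA gene. Mir181c and Mir181d are neighbours on chromosome 19 and overlap no other listed gene. The deposited counts were made on another build, rn5, so coordinates are not given. The sequence of miR-181a-5p is the same in both of its hairpins, and that of miR-181b-5p was also found in the Mir181b2 hairpin, so their reads cannot be assigned to a locus. Mir3570, annotated on the opposite strand of Mir181a-1, had 0 reads in all 12 libraries.

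Library totals ran from 2243413 to 4917928 reads in vehicle rats and from 1960704 to 3598771 in ethanol rats. Levels are given in CPM, reads per 1000000 reads of the TMM-scaled library. Taken as the smallest detectable amount, 3 reads corresponded to between 0.610 and 1.53 reads per 1000000 of the unscaled library total. This floor reflects counting error and no other source. Neuronal markers such as miR-124-3p and miR-9a-5p were present in every library, with a summed level over 5 markers between 30264 and 38459 CPM. Markers of other cell types were also present. Summed over 6 choroid plexus markers the level ran from 18433 to 82739 CPM, and summed over 3 oligodendrocyte markers from 9332 to 19011 CPM. In whole tissue, fewer cells of a type and less RNA per cell cannot be told apart. For none of the 6 marker lists did the groups differ in a two-sided exact permutation test (lowest p = 0.0848, for muscle markers).

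The family held between 12.4% and 18.3% of all miRNA reads in each library, and miR-181a-5p alone ranked first of the 753 miRNAs by mean level. Over all libraries miR-181a-5p supplied 88.1% of the family's reads, miR-181b-5p 5.69%, miR-181c-5p 5.40% and miR-181d-5p 0.457%. The 6 rows of the 3p arms together held the remainder, led by miR-181a-1-3p with 0.213% and miR-181c-3p with 0.101%. The mature strands are of similar length, so levels of members are compared as CPM without scaling for length. How readily each strand enters a library was not measured. Shares, orders and arm ratios are therefore those of reads and not of amounts in the tissue.

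The level of miR-181a-5p was 137510, 111422, 150928 and 102318 CPM in vehicle rats 9, 10, 19 and 20. In the ethanol rats it was lowest in rat 16 at 114931, had a median of 145519 and was highest in rat 23 at 165256 CPM. Vehicle rats 10 and 20 and ethanol rat 16 were low, and the groups overlapped, with 3 of 8 ethanol rats above every vehicle rat.

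Levels of miR-181b-5p, which shares precursor transcripts with miR-181a, were 8295, 7400, 10045 and 6480 CPM in the same vehicle rats. They ran from 6839 in ethanol rat 16 to 11051 CPM in ethanol rat 23, with a median of 9352. The lowest and highest rats of each group were thus those of miR-181a-5p.

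Levels of miR-181c-5p were 8387, 7884, 7985 and 7835 CPM in vehicle rats 9, 10, 19 and 20, a narrow range. The ethanol rats ran from 7364 CPM in rat 23, the rat highest for miR-181a-5p, through a median of 8316 to 12576 CPM in rat 3. Ethanol rat 3 stood well above the other 7 ethanol rats, which reached 9140 CPM.

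The fourth 5p member, miR-181d-5p, had 714, 655, 718 and 611.5 CPM in the vehicle rats. Its ethanol values were lowest in rat 24 at 628, had a median of 737 and were highest in rat 7 at 861 CPM. No vehicle rat exceeded 718 CPM, and 5 of 8 ethanol rats did.

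**Figure D1:**
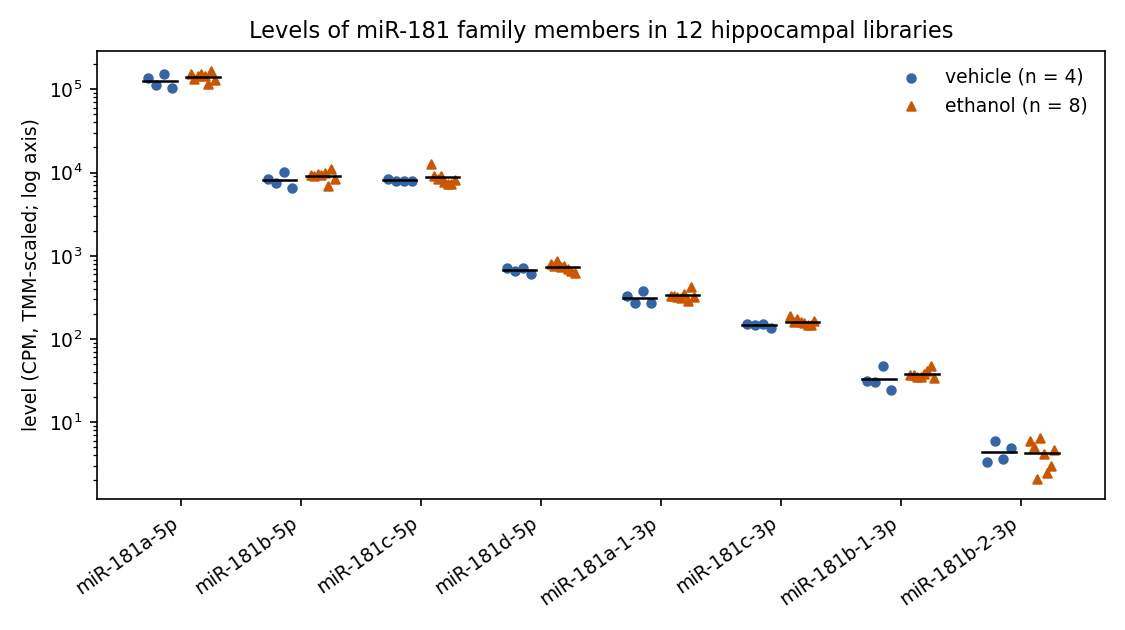
Level of each family member with reads in all 12 libraries, in TMM-scaled CPM on a log axis, with members in order of mean level. Each point is 1 rat (circles, 4 vehicle; triangles, 8 ethanol) and each line a group mean; miR-181b-5p and miR-181c-5p lie at one height, and the groups overlap for every member.

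The 3p strands were far lower. Across all rats miR-181a-1-3p had 271 to 420 CPM, miR-181c-3p 136 to 187 CPM, miR-181b-1-3p 24.7 to 47.3 CPM and miR-181b-2-3p 2.10 to 6.47 CPM. The reads of miR-181b-2-3p were between 4 and 23 per library, with at least 10 in 9 of 12. For miR-181d-3p the files hold at most 3 reads in a library and 0 in 4 of 12, which is at or under the floor.

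No read was listed for miR-181a-2-3p in any library, although the other 3p strand of miR-181a had 609 to 1781 reads per library. Set against 3 reads per library, miR-181a-1-3p was at least 203-fold higher. Over the 12 libraries together, 0 reads allow a level of up to 0.0819 CPM. The planned ratio of the 3p strands of miR-181a therefore had no denominator and was not tested, and which hairpin supplied miR-181a-5p could not be read from them. The RefSeq form of miR-181a-2-3p, 19 nt, is shorter than the gel cut of 20 to 30 nt. The bounds above thus hold for reads in the libraries and not for its level in the tissue.

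For miR-181b the 3p strands of both hairpins were read, and miR-181b-1-3p exceeded miR-181b-2-3p in 12 of 12 rats, by 4.96-fold to 15.8-fold. This ratio was chosen after the values were seen. Its mean was 7.98 ± 3.80 with vehicle and 10.0 ± 4.52 with ethanol (p = 0.434, exact permutation test, two-sided). With as few as 4 reads of miR-181b-2-3p in a library, this ratio carries a large counting error.

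Neighbours in the order of levels were compared within each library. The order was taken from the mean levels of these same libraries, so the tests lend its direction no separate support. From the top the order was miR-181a-5p, miR-181b-5p, miR-181c-5p, miR-181d-5p, miR-181a-1-3p, miR-181c-3p, miR-181b-1-3p and miR-181b-2-3p. In 6 of the 7 neighbouring pairs the upper member was higher in 12 of 12 rats (two-sided exact sign-flip permutation test, adjusted p = 0.00057 for each, from the smallest p this test can give). The exception was miR-181b-5p against miR-181c-5p, of which miR-181b-5p was higher in 6 of 12 rats. Their ratio lay between 0.735 and 1.501 with a mean of 1.04 (exact sign-flip permutation test, adjusted p = 0.558), so the order of these members was not resolved. The ratio of miR-181a-5p to miR-181b-5p was 15.6 and that of miR-181c-5p to miR-181d-5p 11.8. The order of miR-181a-1-3p and miR-181c-3p also depends on how reads were divided between them, as described next.

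Many deposited counts of the family were fractional, as arises when a read is divided between related miRNAs. The counts of miR-181a-1-3p and miR-181c-3p were fractional in 11 of 12 libraries each, yet their sum was whole to within 0.001 reads in 12 of 12. Fractions that cancel in this way arise when reads are divided between these 2 strands alone, and the separate values then depend on the division. Counts of miR-181a-5p, miR-181b-5p and miR-181d-5p were fractional in all 12 libraries, and their sum with miR-181c-5p was whole in none, so their fractions did not cancel within the family. The rows that hold the remainder were not traced. Counts of miR-181c-5p were whole in every library.

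The balance of arms was strongly toward 5p in all rats. For miR-181a there were 416, 409, 403 and 378 reads of 5p per read of 3p in vehicle rats 9, 10, 19 and 20. Ethanol rats ran from 393 in rat 23 to 481 in rat 8 with a median of 415. The vehicle mean was 401 ± 16.8 and the ethanol mean 428 ± 33.1. No difference between the groups was detected (log2 difference 0.09, p = 0.178, exact permutation test). The groups overlapped, with 4 of 8 ethanol rats above every vehicle rat.

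For miR-181c the ratio was 54.7, 53.5, 52.0 and 57.7 in the vehicle rats and ran from 47.9 in ethanol rat 7 to 67.2 in ethanol rat 3. The vehicle mean of 54.5 ± 2.43 and the ethanol mean of 53.5 ± 6.59 were not separated (exact permutation p = 0.721). Their log2 difference was -0.034, and without ethanol rat 3 it was -0.083 (exact permutation p = 0.185). Ethanol rat 3 was the highest, and rats 7, 15, 16, 23 and 24 of the ethanol group fell below the lowest vehicle value. The arm ratio of miR-181c was therefore lower than that of miR-181a in each library, by ranges that did not meet. The ratios are unlike measures, since miR-181a-5p has 2 hairpins and its 3p reads came from miR-181a-1-3p alone. No difference in arm choice between the hairpins is read from them.

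Because the 3p reads of these hairpins had been divided between them, their arms were also pooled, an alternative chosen after the values were seen. The pooled ratio was 289 ± 14.8 with vehicle and 304 ± 19.3 with ethanol (exact permutation p = 0.192), with 5 of 8 ethanol rats above every vehicle rat. For miR-181b, whose ratio was added likewise, the means were 214 ± 18.8 and 217 ± 28.0 (exact permutation p = 0.919). Ethanol rat 16 was the lowest for miR-181b at 155.

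**Figure D2:**
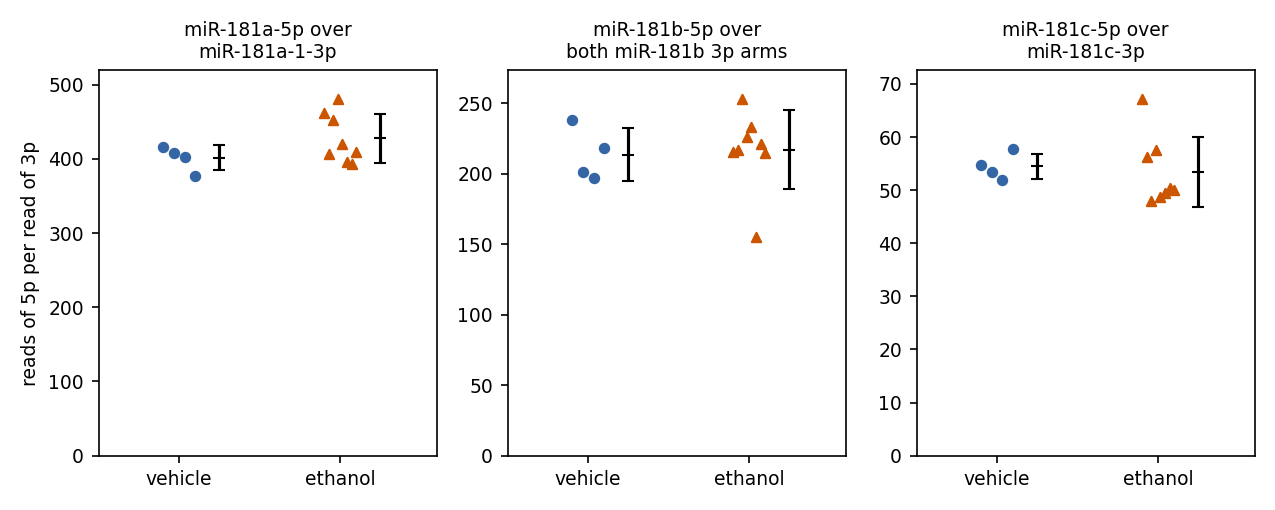
Reads of the 5p strand per read of the 3p strand for miR-181a, miR-181b and miR-181c, with each axis from 0. Points are rats (4 vehicle, 8 ethanol) and bars the group mean ± SD; the ratios are near 400 for miR-181a and near 50 for miR-181c, and the groups overlap in each panel.

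Ethanol was compared with vehicle over the 420 miRNAs that were left once those below 10 reads in at least 10 libraries were dropped, 8 family members among them. The members left out were miR-181a-2-3p and miR-181d-3p. Of the 8 tested, 0 reached a raw p under 0.05 by the quasi-likelihood test of edgeR, beside 17 of all 420 miRNAs (4.05%), and 0 did so with a higher level after ethanol, beside 1.67% of all. Of the members 0 passed Benjamini-Hochberg adjustment over the 420, as did 0% of all miRNAs. Vehicle and ethanol CPM overlapped for each of the 8, and 0.238% of all tested miRNAs showed no overlap. DESeq2's Wald test and limma-trend also gave 0 members with a raw p under 0.05. No change of a member after ethanol was therefore detected.

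Point estimates were above 0 for 7 of the 8 members, beside 46% of all tested miRNAs. The members share hairpins and reads, so these are not independent observations. Their median log2 fold change was 0.13 against -0.02 over the 420 miRNAs. The count of 7 higher was also obtained with each of the 5 other scalings.

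For miR-181a-5p the level was 125544 ± 22557 CPM with vehicle and 142361 ± 15549 CPM with ethanol. The log2 fold change, 0.18, had a standard error of 0.12 and a 95% interval from -0.07 to 0.43 (edgeR's quasi-likelihood test, adjusted p = 0.971). For miR-181b-5p, 8055 ± 1520 CPM stood against 9182 ± 1228 CPM. Its log2 fold change of 0.19 had a 95% interval from -0.09 to 0.46. The data thus did not separate no difference from a rise by the upper bound of these intervals.

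For miR-181c-5p the means were 8023 ± 250 CPM and 8734 ± 1706 CPM, and the interval of its log2 fold change ran from -0.15 to 0.39. For miR-181d-5p they were 675 ± 50.7 CPM and 735 ± 75.4 CPM, with an interval from -0.07 to 0.31. Among the 3p strands, miR-181c-3p had the smallest raw p of the family, 0.131 in edgeR's quasi-likelihood test (log2 fold change 0.14, interval -0.05 to 0.32, adjusted p = 0.971). Its level was 147 ± 8.30 CPM with vehicle and 162 ± 13.5 CPM with ethanol, and 6 of 8 ethanol rats exceeded every vehicle rat.

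For miR-181a-1-3p and miR-181b-1-3p the log2 fold changes were 0.10 (0.20 without vehicle rat 19) and 0.18, with intervals from -0.15 to 0.34 and from -0.15 to 0.51. The widest interval was that of miR-181b-2-3p, from -0.67 to 0.58. Vehicle rat 19, the vehicle rat highest for miR-181a-5p, bore on these results. Without it, edgeR gave 3 members a raw p under 0.05, and 24 of the 420 miRNAs. They were miR-181a-5p (log2 fold change 0.28), miR-181b-5p (0.31) and miR-181b-1-3p (0.40), and the adjusted p of each was 0.718 in edgeR. Other removals lowered estimates. Without vehicle rat 20 that of miR-181b-1-3p was 0.08, and that of miR-181a-1-3p was 0.04 both without vehicle rat 10 and without ethanol rat 23. For miR-181c-5p it was 0.07 without ethanol rat 3 and 0.01 with the library total as a covariate. That covariate also gave 0.06 for miR-181d-5p and 0.08 for miR-181c-3p, and raised miR-181a-1-3p to 0.17 and miR-181b-1-3p to 0.28.

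**Figure D3:**
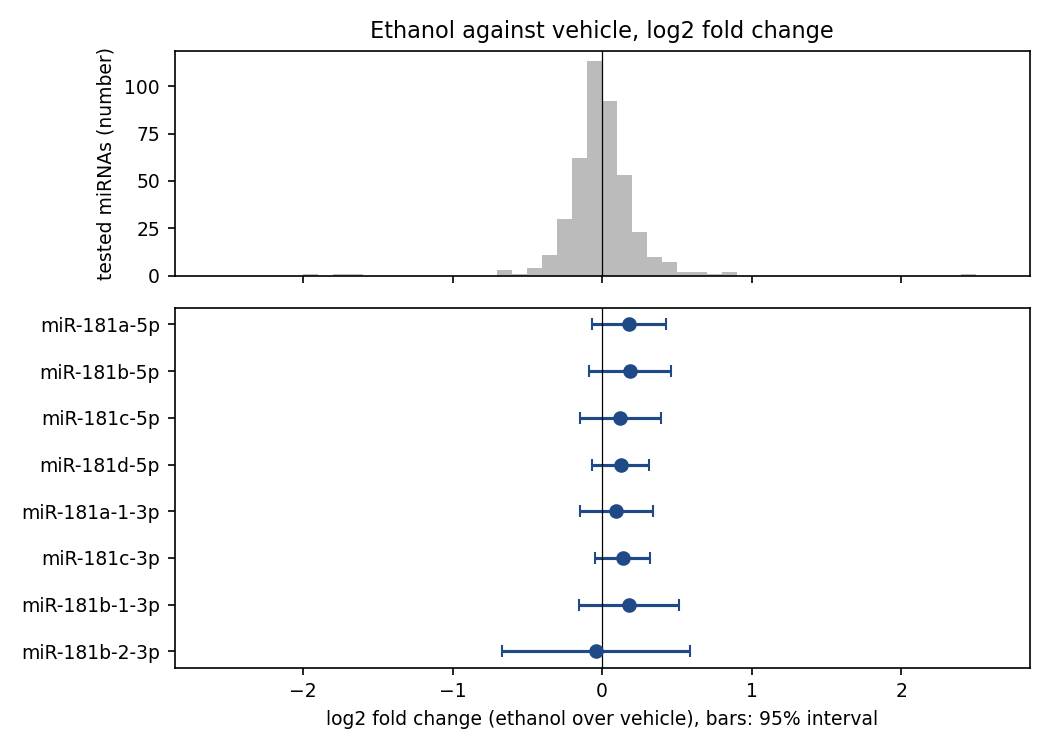
Log2 fold change of ethanol over vehicle. The upper panel is a histogram of the 420 tested miRNAs, and the lower panel gives the 8 tested family members, ordered by level, with points for the estimate and bars for its 95% interval; all 8 intervals include 0.

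The summed share of the family was compared without scaling factors. It was 15.6%, 13.4%, 16.5% and 12.4% of the reads in vehicle rats 9, 10, 19 and 20. In ethanol rats it ran from 12.8% in rat 16 through a median of 16.1% to 18.3% in rat 3. Of the 8 ethanol rats, 7 were above the vehicle mean and 3 above every vehicle rat. The vehicle mean was 14.5 ± 1.89% and the ethanol mean 16.0 ± 1.76%. No difference between the groups was detected (log2 difference 0.15, p = 0.194, exact permutation test).

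Marker sums were set beside this share, an unplanned comparison for which no association was computed. The oligodendrocyte markers are both arms of miR-219a and miR-338-3p. The 3 libraries with the lowest family share, from vehicle rat 20, ethanol rat 16 and vehicle rat 10, had the 3 lowest oligodendrocyte sums, at 9332, 9827 and 9972 CPM. Ethanol rats 15 and 23, among the 3 with the highest family share, had 18480 and 19011 CPM. Ethanol rat 3, the highest, had 13501 CPM, and it had the lowest choroid plexus sum, 18433 CPM. Muscle markers were high in vehicle rats 9, 19 and 20, at 1685, 1626 and 1765 CPM, and in ethanol rat 16, at 1712 CPM, and reached at most 290.4 CPM in the other 8 libraries. The part of any cell type in the family's share was not tested.

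Within the family, the shares of miR-181a-5p and miR-181b-5p varied little between libraries, and those of miR-181c-5p and miR-181d-5p varied more. The share of miR-181a-5p in the summed 5p reads lay between 87.1% and 89.7%. That of miR-181b-5p lay between 5.27% and 6.05%, while that of miR-181c-5p ran from 4.00% in ethanol rat 23 to 7.19% in ethanol rat 3, a 1.80-fold range. The share of miR-181d-5p ran from 0.358% in ethanol rat 23 to 0.537% in ethanol rat 16. For miR-181c-5p the mean was 5.75 ± 0.869% with vehicle and 5.45 ± 0.946% with ethanol. No difference between the groups was detected for any of the 4 shares (exact permutation test, adjusted p over the 4 members between 0.792 and 0.838).

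**Figure D4:**
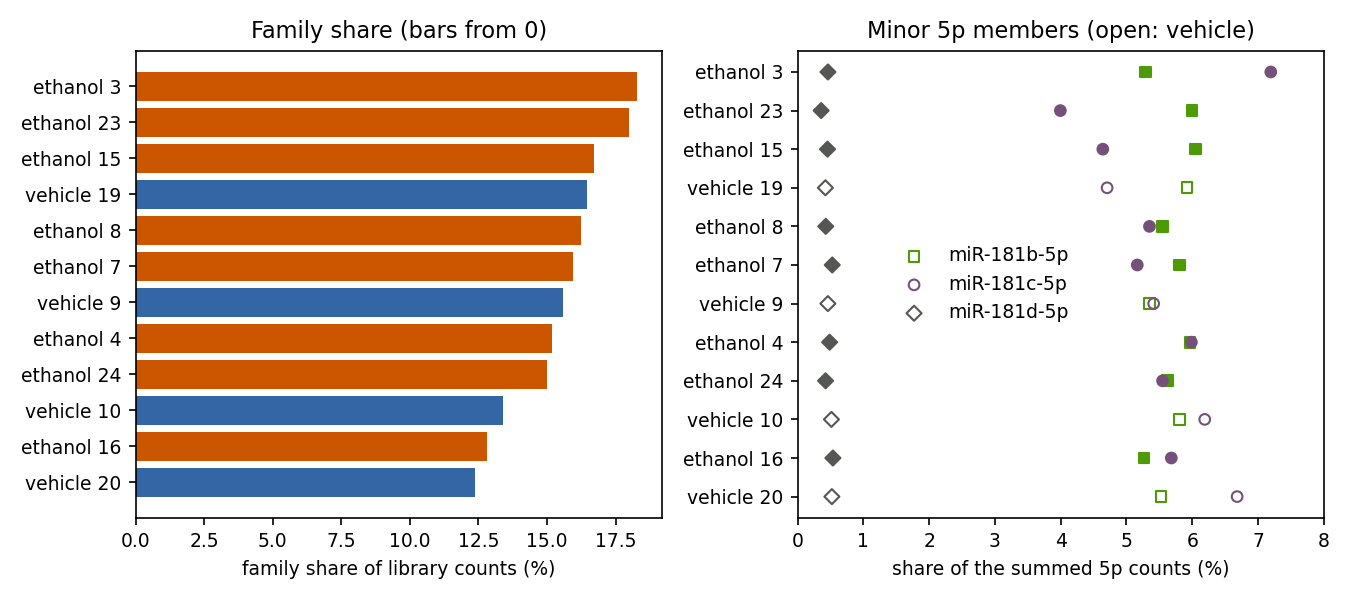
Left, family share of each library's reads in percent, bars from 0, libraries in order of share (blue, vehicle; orange, ethanol). Right, the share of miR-181b-5p, miR-181c-5p and miR-181d-5p in the summed 5p reads of the same libraries (open, vehicle; filled, ethanol); miR-181c-5p spreads from 4.00% to 7.19%, and miR-181b-5p stays between 5.27% and 6.05%.

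The spread of the ratio between members was described by the SD of its log2 value over the 12 libraries, which is free of scaling. The smallest SD belonged to miR-181a-5p and miR-181b-5p, 0.07, where counting alone would give 0.0095. The next belonged to miR-181d-5p and miR-181c-3p, 0.09, where counting alone would give 0.08. Each of these pairs is of strands from neighbouring hairpins, and all of these strands had fractional counts. The part of genomic position or of divided reads in these SDs was not tested. Among pairs from different chromosomes, miR-181a-5p and miR-181c-5p had an SD of 0.25, which was 0.21 without ethanol rat 23, and miR-181a-5p and miR-181d-5p one of 0.18. The neighbours miR-181c-5p and miR-181d-5p also had an SD of 0.18. Without ethanol rat 3 it was 0.14 for miR-181c-5p with miR-181d-5p and 0.19 for miR-181a-5p with miR-181d-5p. Without ethanol rat 23 the order was the reverse, 0.19 and 0.14.

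**Figure D5:**
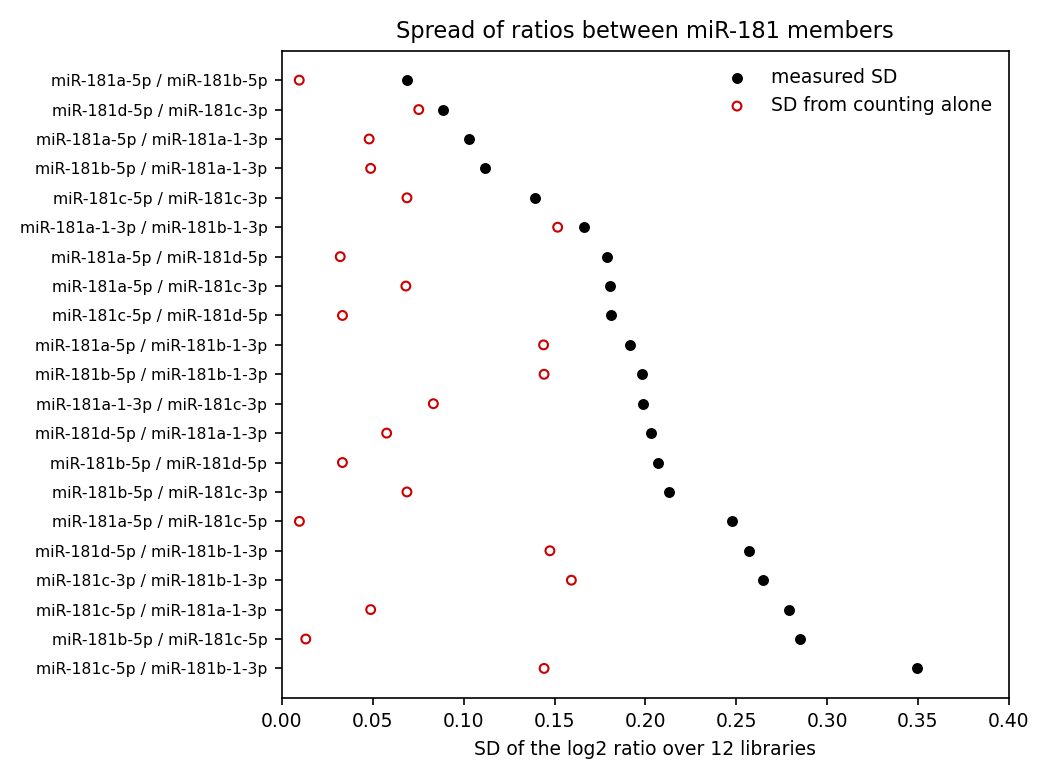
SD of the log2 ratio of 2 family members over the 12 libraries (filled points) and the SD that counting error alone would give (open points), for the 21 pairs without miR-181b-2-3p. The SD is smallest, 0.07, for miR-181a-5p with miR-181b-5p and largest, 0.35, for miR-181c-5p with miR-181b-1-3p.

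By the same measure each 5p member was compared with the other 419 tested miRNAs. The nearest to miR-181a-5p was miR-181b-5p, followed by 3 miRNAs outside the family, miR-93-5p (SD 0.09), miR-21-5p (0.09) and miR-192-5p (0.09), and then miR-181a-1-3p (0.10). The median over all miRNAs was 0.33. Of the rest of the family, miR-181d-5p ranked 27, miR-181c-3p 29, miR-181b-1-3p 35, miR-181c-5p 88 and miR-181b-2-3p 350. These ranks include counting error, which alone would give an SD of 0.14 for miR-181b-1-3p and 0.44 for miR-181b-2-3p. It would give 0.03 for miR-181d-5p and 0.07 for miR-181c-3p, so the ranks do not resolve the order of these 3p strands and miR-181d-5p. For miR-181d-5p the nearest was miR-181c-3p.

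For miR-181c-5p the nearest were miR-140-3p (0.12), miR-150-5p (0.13), a lymphocyte miRNA, and miR-339-5p (0.13), with its own 3p strand at rank 5. Like miR-181c-5p, both miR-140-3p and miR-150-5p were highest in ethanol rat 3, at 1341 and 663 CPM, against medians of 1131 and 563 CPM in the ethanol rats. Both were picked for varying with miR-181c-5p in these same libraries, so sharing its highest rat adds no separate support. The sum of 6 blood and leukocyte markers, which include miR-150-5p, was also highest in ethanol rat 3, at 1385 CPM against 798 to 1170 CPM in the other 7 ethanol rats. Of these 1385 CPM, 663 CPM were miR-150-5p itself. The part of blood cells in the level of miR-181c-5p was not tested.

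The family was set against 3 other abundant families of the same libraries. The 5p members of miR-181 held 12.3% to 18.2% of reads, a 1.48-fold range. The listed 5p rows of let-7 and miR-98 (9 rows) held 6.00% to 7.93%, those of miR-30 (4 rows) 11.6% to 13.2% and miR-26a-5p with miR-26b-5p 13.6% to 16.1%. The leading member, miR-181a-5p, took at least 87.1% of its family, beside 51.0% to 51.1% for miR-26a-5p, 56.0% to 62.8% for let-7a-5p and 77.0% to 80.9% for miR-30a-5p. The share of miR-26a-5p hardly moved between libraries. Whether its reads were divided with miR-26b-5p was not tested, so that share is not read as a measured balance.

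The ratio of miR-181 to miR-26 reads was 0.924 ± 0.121 with vehicle and 1.10 ± 0.124 with ethanol (exact permutation p = 0.0384). Adjusted over the 3 families tested it did not pass (adjusted p = 0.115, permutation test), and with single rats left out the raw p ran from 0.00606 without ethanol rat 16 to 0.145 without vehicle rat 20. The miR-26 share itself was 15.6 ± 0.281% of reads with vehicle and 14.6 ± 0.873% with ethanol. That of the miR-181 5p members was 14.4 ± 1.89% and 16.0 ± 1.75%, so the means of both parts of the ratio differed. The ratio to let-7 was 2.17 ± 0.468 and 2.47 ± 0.312, with an adjusted p of 0.275 in the same permutation test. The ratio to miR-30 was 1.18 ± 0.203 and 1.30 ± 0.155, also with an adjusted p of 0.275 in the permutation test.

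Other miRNAs known from the settings in which miR-181 acts were counted from lists chosen with earlier results of these data known. Of 10 miRNAs of inflammatory signalling, 1 had a raw p under 0.05 with a higher level after ethanol and 0 with a lower one. This was miR-146a-5p, an inhibitor of NF-kappaB signalling, at 62.6 ± 4.96 CPM and 76.3 ± 12.2 CPM. The log2 fold change of 0.28 had a standard error of 0.13 (edgeR's quasi-likelihood test, adjusted p = 0.971). The list's median log2 fold change was 0.04, and miR-21-5p (0.18) and miR-132-3p (-0.12) had the next smallest p.

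Of 12 miRNAs of synapses and dendrites, 1 had a raw p under 0.05 with a higher level and 0 with a lower one. It was miR-134-5p, which acts on dendritic spines, with a log2 fold change of 0.30. The list's median was -0.08, and miR-138-5p (-0.22) and miR-218a-5p (-0.21) came next by p. After adjustment over all 420 miRNAs in edgeR's quasi-likelihood test 0 members of either list passed. Beside the 4.05% of all miRNAs with a raw p under 0.05, 1 of 10 and 1 of 12 are small counts from which nothing is read.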

How the data were processed

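Per the labels, the submitters' processing notes name cutadapt, Partek and the rat build rn5. Their roles, versions and the miRNA annotation are not given in the sources used here. The authors deposited 1 list of estimated counts (expected counts) per rat for 753 miRNAs, unscaled, with 80.2% to 83.4% of values whole. By the labels and the study's methods, RNA (1 µg) was selected at 20 to 30 nt and read for 37 cycles in sets of 8 libraries. The set of each library is not given in the labels, so sets could not be compared.

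Counts were rounded and scaled with TMM factors. Ethanol was compared with vehicle by edgeR 4.0.16 (R 4.3.3) without covariates, with limma 3.58.1 and DESeq2 1.42.0 as alternatives. Standard errors were taken from the fold change and its F statistic. Ratios and shares used unrounded counts, with 0.5 reads added to ratios, and two-sided exact permutation tests over every division of the rats into 4 and 8, which cannot go below p = 0.00202. No 2 libraries were alike within counting noise (66 pairs, chi-square over degrees of freedom at least 39.1). The scripts were tested on simulated data. Reads carry no molecular identifiers, so floors cover counting error only. The named miRNAs were the family members, the 3 nearest to miR-181a-5p outside it, and up to 3 of each comparison list by smallest p. The nearest miRNAs of miR-181c-5p and the miR-181b ratios were named after their values were seen. The members, families and lists were chosen with earlier results of these data known. The marker miR-486 matched no row under that name. Alternatives covered scaling, filter, test, rounding, library total as a covariate, pseudocount and each rat left out in turn.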

Additional observations from a re-analysis of the deposited data

Results flagged for a closer look

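Each of 18 family measures was examined within either group, and 2 of these 36 sets held a library far from the rest of its set, where chance gives about 1 in 20 sets, or 1.8. Ethanol rat 3 was the highest for miR-181c-5p, at 12576 CPM against 7364 to 9140 CPM in the other 7 rats of that group. On the log2 scale its distance to the next rat was 0.596 of the whole range. Ethanol rat 16 was the lowest for the ratio of miR-181b-5p to its 3p strands, at 155 against 215 to 253 in the other 7, a distance of 0.666 of the range.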

How the results depend on the processing

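Across 12 other scalings, filters, tests and count treatments, 0 members had a raw p under 0.05 in each. With single rats left out, the number was between 0 and 3, and vehicle rat 19 was the one whose removal gave 3. Over all tested miRNAs the number with a raw p under 0.05 was 17, it was 11 with the library total as a covariate, and it lay between 5 and 24 with single rats left out, falling to 5 without vehicle rat 20, 9 without vehicle rat 9, 10 without ethanol rat 4 and 11 without ethanol rat 8. For miR-181b-2-3p, which has few reads, the log2 fold change ranged from -0.15 to 0.090 with single rats left out, and the log2 difference of the miR-181b arm ratio from -0.022 to 0.083. The family share kept its direction throughout, with a log2 difference of 0.08 to 0.22 with single rats left out and 0.14 to 0.19 with other denominators or rounding. The miR-181a and miR-181c arm ratios kept their directions too. The stricter filter left miR-181b-2-3p untested, and the ratio of the miR-181a 3p strands was not run. No paired analysis was possible because the groups share no animal numbers. Depth limits miR-181b-2-3p and miR-181d-3p, and 4 vehicle rats limit every comparison.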
